A study of Homo sapiens with 6 samples.

Results

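The HOX cluster genes are the 39 protein-coding genes of the human HOXA, HOXB, HOXC and HOXD clusters, taken from the RefSeq gene table by symbol (HOXA, HOXB, HOXC or HOXD followed by a number), out of 19974 protein-coding genes on the autosomes and X. There were 11 genes in HOXA on chromosome 7, 10 in HOXB on chromosome 17, 9 in HOXC on chromosome 12 and 9 in HOXD on chromosome 2. Around them the binding of FOSL2 and JUNB was mapped by ChIP-seq. These proteins of the FOS and JUN families pair to form AP-1, a transcription factor that responds to growth and stress signals. The cells were HaCaT, human keratinocytes that became immortal in culture, and the labels name no treatment. Each factor had 3 libraries, prepared by ChIPmentation with an antibody of its own, and was analysed as 1 list of binding regions that stands for those libraries together. The lists hold no value per library and no expression, so no spread between replicates was available, the depth was unknown, no difference below was tested, and the cell type in the label was not checked.

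HOX genes encode homeodomain transcription factors that give cells their position along the body axis. Within a cluster they lie in the order in which they act from head to tail, all read in one direction, and paralogue numbers run from 1 (anterior) to 13 (posterior). Adult skin cells keep part of this positional code, and in cells where a HOX gene is off its chromatin is typically held by Polycomb group proteins.

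The HOXB span ran from 48528526 to 48728750 on chromosome 17, HOXC from 53938831 to 54056030 on chromosome 12 and HOXD from 176087487 to 176190907 on chromosome 2, all in hg38. The table gives the strand through the promoter entries of 20 of the 39 genes, with 1 direction per cluster, and this direction was used for the whole cluster. Distances to a gene's start are to the 5′ end of its annotated span. This end is that of the longest model, so starts further inside a span were not separated. HOXC4, HOXC5 and HOXC6 share this end. The span of HOXA3 runs over HOXA4, HOXA5 and HOXA6, that of HOXB3 over HOXB4, and HOXD3 overlaps HOXD4. In these cases each gene kept a 5′ end of its own.

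Most HOX starts with a region of either factor were in HOXA and HOXC. A region's summit is its point of highest signal. FOSL2 summits lay within 1 kb of the 5′ ends of HOXA4, HOXA5, HOXA7, HOXA9, HOXA13, HOXC4, HOXC5, HOXC6, HOXC9, HOXC10 and HOXC13. JUNB summits did so at genes that included HOXA6, HOXA7, HOXA9, HOXA13, HOXC4, HOXC5, HOXC6, HOXC10, HOXC11 and HOXD11. Each factor thus marked 11 of 39 genes (28.2%), and 7 genes (17.9%) were marked by both. The counts were the same for summits within 1 kb of either gene end. HOXC4, HOXC5 and HOXC6 enter them separately, though they share a start and a region of each factor there. Of all protein-coding genes, 27.0% had a FOSL2 summit within 1 kb of either gene end, 27.1% a JUNB summit and 15.8% both, so the HOX shares were near the background. No HOXB gene had a summit of either factor within 1 kb of an end of its annotated span. Starts further inside a span, such as that of HOXB3, were not examined.

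The 4 promoters below are shown because a FOSL2 summit lies in them and their sequence is in the RefSeq promoter table (GRCh38.p14, with the same chromosome positions as hg38). Each is the 250 bases before the transcript start, 5′ to 3′ in the direction of the gene. Capitals mark the FOSL2 summit with up to 5 bases on each side, cut at the transcript start. They are HOXA4 (chr7:27130758-27131007, minus strand), HOXA7 (chr7:27156676-27156925, minus), HOXA9 (chr7:27165538-27165787, minus) and the start shared by HOXC4 and HOXC5 (chr12:54016638-54016887, plus).
HOXA4: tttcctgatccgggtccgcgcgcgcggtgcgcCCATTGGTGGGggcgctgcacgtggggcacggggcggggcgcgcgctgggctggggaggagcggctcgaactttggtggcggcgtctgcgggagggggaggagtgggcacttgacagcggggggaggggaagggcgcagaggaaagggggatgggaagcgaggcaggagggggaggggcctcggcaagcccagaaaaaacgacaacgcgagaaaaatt
HOXA7: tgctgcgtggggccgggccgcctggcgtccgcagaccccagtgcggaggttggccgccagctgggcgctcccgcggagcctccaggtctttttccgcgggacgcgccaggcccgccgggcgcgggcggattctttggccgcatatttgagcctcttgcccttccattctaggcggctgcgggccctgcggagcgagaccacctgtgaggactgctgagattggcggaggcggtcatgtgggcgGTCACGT
HOXA9: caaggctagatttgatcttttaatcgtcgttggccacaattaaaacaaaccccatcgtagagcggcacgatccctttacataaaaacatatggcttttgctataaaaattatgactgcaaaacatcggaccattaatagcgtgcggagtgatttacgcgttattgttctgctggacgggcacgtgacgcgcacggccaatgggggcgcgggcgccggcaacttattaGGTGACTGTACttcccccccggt
HOXC4: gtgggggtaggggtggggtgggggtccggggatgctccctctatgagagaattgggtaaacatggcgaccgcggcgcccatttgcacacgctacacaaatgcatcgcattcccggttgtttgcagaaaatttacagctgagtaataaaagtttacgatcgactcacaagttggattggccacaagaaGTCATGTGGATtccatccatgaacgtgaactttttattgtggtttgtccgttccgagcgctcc

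The summit of FOSL2 lay 213 bp upstream of the start at HOXA4, 2 bp at HOXA7, 18 bp at HOXA9 and 58 bp at HOXC4. JUNB had its summit 3 bp inside HOXA9 and 69 bp upstream of HOXC4, which placed the summits of the factors 21 bp and 11 bp apart. At HOXA7 the JUNB summit lay 65 bp inside the gene, and HOXA4 had no JUNB region within 10 kb. GC content was 70% and 70.8% in the HOXA4 and HOXA7 windows and 48.8% and 50.8% in those of HOXA9 and HOXC4, beside a median of 62% over 22035 windows of protein-coding genes. Neither the AP-1 consensus TGANTCA nor the related TGACGTCA, each its own reverse complement and so read on both strands, was found in the 26 HOX windows of 300 bases (250 before and 50 after a start). In windows of protein-coding genes their shares were 6.17% and 2.25%. At shares this low, 0 of 26 windows is near the background and is not a result about HOX promoters. The windows were searched whether or not a region lay in them. These letters are absent from these windows only. Windows under regions away from starts were not searched.

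HOXA carried the most regions of the 4 clusters, with 10 FOSL2 and 7 JUNB summits over 107.1 kb. Between the JUNB summit downstream of HOXA10 and the high-coordinate end of the cluster, 31.05 kb held HOXA10, HOXA11 and HOXA13 without a summit of either factor. HOXA11, which acts in limb and kidney development, lacked regions of FOSL2 and JUNB within 10 kb.

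The strongest HOXA region of both factors lay inside the HOXA3 span. FOSL2 had a fold enrichment of 6.91 there, the peak caller's linear ratio of signal over background, and JUNB 3.90, with summits 9 bp apart and 8723 and 8732 bp upstream of HOXA2, which patterns the branchial arches. Of the FOSL2 list 64.5% of regions had a lower value, and of the JUNB list 31.3%. The next FOSL2 regions stood on their own. FOSL2 reached 6.78 at 5323 bp upstream of HOXA4 and 5.74 at the HOXA4 promoter, both without a JUNB region. The HOXA4, HOXA5 and HOXA6 stretch held no JUNB summit over 36.88 kb.

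At HOXA9, a posterior gene known for its part in blood stem cells and leukaemia, a pair of shared regions met the start, with 5.12 for FOSL2 and 3.19 for JUNB. The pair at HOXA7, a central gene, was weaker, with 3.90 for FOSL2 and 2.12 for JUNB. That JUNB region was among the lowest of its list, with 0.255% of regions below it. HOXA5, which acts in lung development, had FOSL2 alone 72 bp upstream of its start (4.17).

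HOXA6 had a JUNB region of 2.32 at 520 bp upstream, in or within 1 kb of the antisense gene HOXA-AS3. Further weak regions lay over 1 kb from any HOX start, with FOSL2 at 2.25, 2.67 and 2.28 inside the HOXA3 span and JUNB at 2.16 between HOXA7 and HOXA9. A JUNB region of 2.60 ended 99 bp from MIR196B, whose microRNA belongs to a family that targets HOX transcripts, and the closest FOSL2 region was 3498 bp away.

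Just past HOXA13, a posterior gene of the digits and the genital tract, a shared pair lay in or within 1 kb of HOTTIP, a noncoding RNA known to act on posterior HOXA genes. FOSL2 reached 2.73 at 836 bp and JUNB 2.89 at 803 bp upstream of HOXA13, so this pair is counted in the flank.

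**Figure D1:**
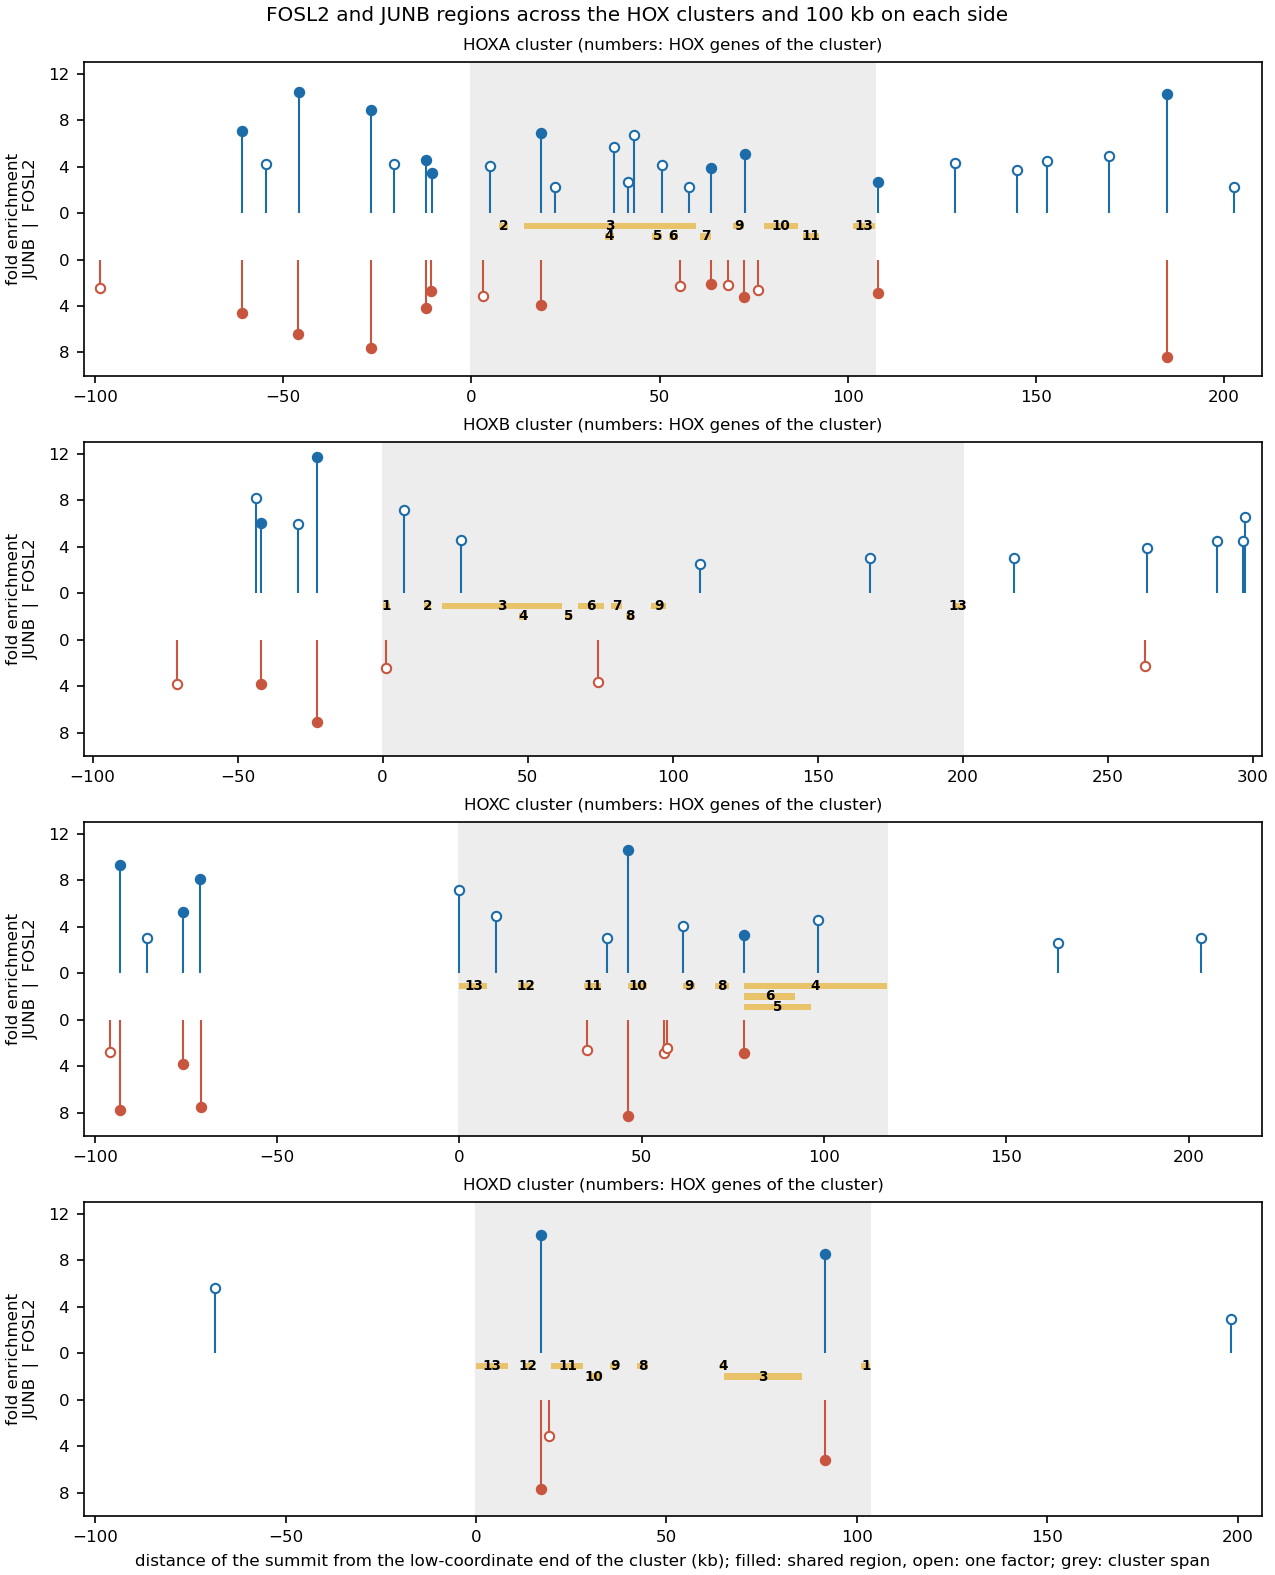
Fold enrichment of each FOSL2 region (blue, upward) and JUNB region (red, downward) against the distance of its summit from the low-coordinate end of the cluster in kb, for the 4 HOX clusters with 100 kb on each side. Yellow boxes are HOX genes with their paralogue number (not all are drawn), the grey field is the cluster span, filled points are shared regions and open points regions of 1 factor. HOXA holds 10 FOSL2 and 7 JUNB summits, HOXD 2 and 3.

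HOXC held 6 FOSL2 and 5 JUNB summits over 117.2 kb, and its strongest pair sat at HOXC10, a posterior gene of spinal cord and hindlimb. FOSL2 had 10.6 in the region from 53984592 to 53985741, and JUNB 8.27 in that from 53984687 to 53985798. The summits lay 108 and 95 bp upstream of the HOXC10 start, 13 bp apart, in or within 1 kb of HOXC-AS3. Of the FOSL2 list 92.8% of regions had a lower value, and of the JUNB list 89.99%. These were the highest values of each factor inside a HOX cluster.

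The other HOXC regions were weaker. At the common start of HOXC4, HOXC5 and HOXC6 FOSL2 had 3.30 and JUNB 2.88. The remaining FOSL2 regions were single: 4.96 at 6046 bp upstream of HOXC12, 4.61 inside HOXC4, 4.03 at 78 bp upstream of HOXC9 and 3.07 at 5940 bp upstream of HOXC10. JUNB had 2.84 and 2.42 near HOXC-AS2, upstream of HOXC9, and 2.63 at 799 bp inside HOXC11, in or within 1 kb of the noncoding RNA gene HOTAIR. HOXC13, a gene of hair and nail differentiation, had a FOSL2 region of 7.18 with its summit 166 bp upstream of the start, just outside the span. This summit lay in or within 1 kb of the antisense gene HOXC13-AS. HOXC13 had no JUNB region within 10 kb. HOXC12 likewise had FOSL2 alone within 10 kb.

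In HOXD few regions were present, and those shared were strong. One pair lay between HOXD12 and HOXD11, which act in the limb, with 10.2 for FOSL2 (176103960 to 176105009) and 7.65 for JUNB (176104000 to 176104725), and with summits 12 bp apart. The other pair lay upstream of HOXD1, with summits 15 bp apart, in or within 1 kb of the noncoding gene HAGLR. FOSL2 had 8.59 there (176178524 to 176179462) and JUNB 5.17 (176178630 to 176179214). The only other region in the HOXD span was a JUNB region of 3.09 at 578 bp upstream of HOXD11. Between these sites, 72.39 kb from HOXD11 to HOXD3 held no summit of either factor, and HOXD4, HOXD8 and HOXD9 had no region within 10 kb.

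HOXB had the lowest density of JUNB summits, 2 over 200.2 kb, with 4 of FOSL2, and none of its 6 regions was shared. The strongest was a FOSL2 region of 7.15 from 48535598 to 48536477, 5002 bp upstream of HOXB1, a hindbrain gene. FOSL2 had 4.55 at an inner site of HOXB3 and 2.52 and 3.00 in the long stretch without HOX genes between HOXB9 and HOXB13. JUNB had 3.67 inside HOXB6 and 2.44 inside HOXB1. From HOXB4 to HOXB9 no FOSL2 summit was found over 82.48 kb. HOXB4, HOXB9 and HOXB13, the last a prostate and hindgut gene, lacked FOSL2 and JUNB regions within 10 kb.

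Counted within 10 kb of the gene span, FOSL2 had a region at 27 of 39 HOX genes (69.2%) and JUNB at 27 (69.2%), beside 76.9% and 64.0% of all protein-coding genes. Regions of both factors were near 22 genes (56.4%, all genes 60.0%), and shared regions of each factor near 18 (46.2%, all genes 53.1%). The 7 genes without any region (17.9%, all genes 19.2%) were HOXA11, HOXB4, HOXB9, HOXB13, HOXD4, HOXD8 and HOXD9. At 10 kb none of these shares is a result about HOX genes, since each is near the background. Where a region had to overlap the gene span, FOSL2 was at 12 and JUNB at 11 of 39 HOX genes. Both are below the shares of all genes at that setting, 59.4% and 49.4%. This difference was not tested. HOX genes were also shorter than the rest, with a median span of 3.785 kb against 24.17 kb, which leaves less sequence for a region to fall in.

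Neighbouring HOX genes shared their regions. The gene counts rested on 22 distinct FOSL2 and 18 distinct JUNB regions, of which 18 and 15 were counted for more than 1 gene, up to 4. With each region given to its nearest HOX gene alone, a setting chosen after seeing the data, 16 genes had a FOSL2 region and 15 a JUNB region. The share of all genes under this setting was not counted. HOXD1 was the last gene inside the 10 kb limit for FOSL2 (9206 bp) and HOXB9 the first outside (11548 bp). For JUNB these were HOXD10 (9835 bp) and HOXA11 (11776 bp).

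In HOXB, FOSL2 was at HOXB1, HOXB2 and HOXB3 through 2 regions, and JUNB at HOXB1, HOXB5, HOXB6, HOXB7 and HOXB8 through 2 others. Both factors were thus near 1 of 10 HOXB genes, beside 60.0% of all protein-coding genes. With so few regions, counted for neighbouring genes, this contrast was not tested and is no result about HOXB.

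**Figure D2:**
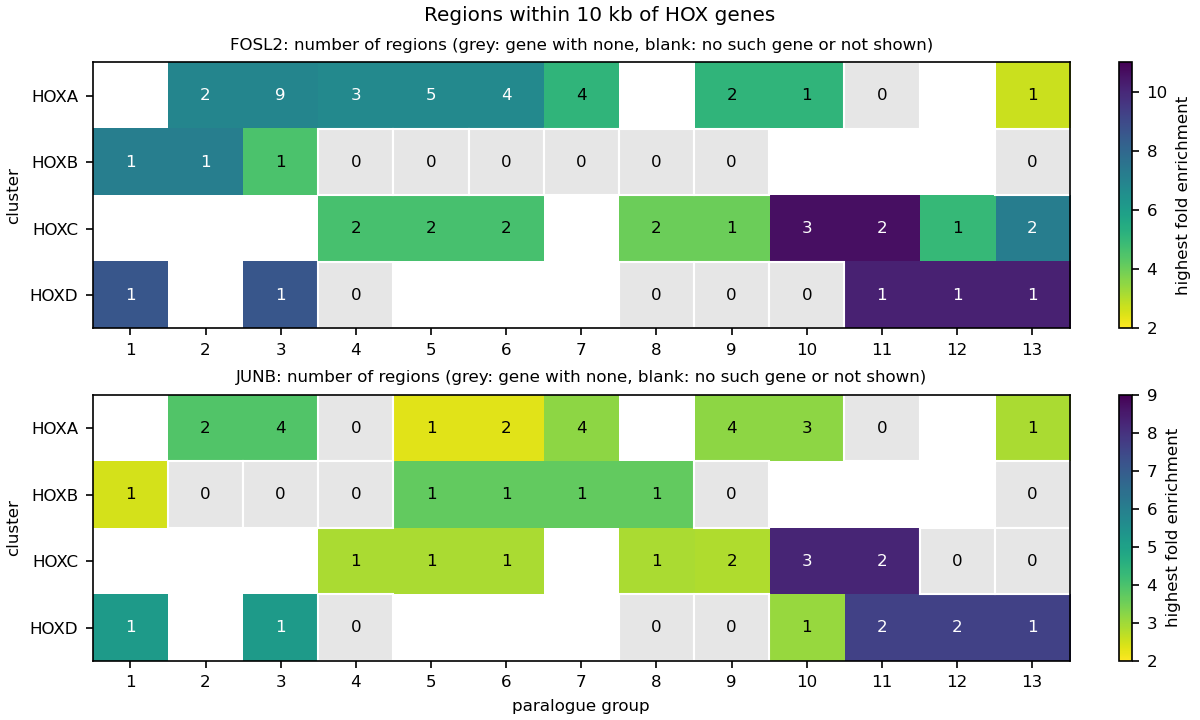
Number of regions within 10 kb of HOX genes (figures in the cells) by cluster and paralogue group, coloured by the highest fold enrichment on a scale of its own for each factor. Grey cells are genes without a region and blank cells are paralogues that do not exist or are not shown. FOSL2 has no region from HOXB4 to HOXB13, and the highest value of each factor is shared by HOXC10 and HOXC11, through 1 region.

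The next comparison set each cluster against its flanks of 100 kb. Over the 4 clusters FOSL2 had 4.17 summits per 100 kb inside (95% exact Poisson interval 2.61 to 6.31) and 4.0 in the flanks (2.74 to 5.65), a ratio of 1.04 (0.577 to 1.85). JUNB had 3.22 inside (1.88 to 5.16) and 2.0 in the flanks (1.14 to 3.25), a ratio of 1.61 (0.765 to 3.40). These intervals cover counting error only, and both ratios include equal density. Over the genome, measured to the last annotated position of each chromosome, the lists held 2.50 and 1.32 summits per 100 kb. The intervals of both factors in the clusters, and of FOSL2 in the flanks, lay above these values. HOXA alone held 10 of the 22 FOSL2 and 7 of the 17 JUNB cluster summits, and the pooled densities were not computed without it.

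Densities ranged widely between the clusters. HOXA had 9.34 FOSL2 summits per 100 kb (4.48 to 17.2) and 7.0 in its flanks (3.83 to 11.7), whereas HOXB had 2.0 (0.544 to 5.12) and 4.50 (2.06 to 8.54). HOXC had 5.12 (1.88 to 11.1) and 3.50 (1.41 to 7.21), and HOXD 1.93 (0.234 to 6.99) and 1.0 (0.121 to 3.61). For JUNB the densities inside were 6.54 in HOXA, 0.999 in HOXB, 4.27 in HOXC and 2.90 in HOXD, beside 4.0, 2.0, 2.0 and 0 in the flanks. By these values HOXA and HOXC had both factors above the genome's density, and HOXB both below it. The HOXB intervals, 0.544 to 5.12 for FOSL2 and 0.121 to 3.61 for JUNB, included the genome's density, however. So did the interval of FOSL2 in HOXC and the intervals of both factors in HOXD (JUNB 0.598 to 8.48). The intervals lay above the genome's density for both factors in HOXA (JUNB 2.63 to 13.5) and likewise in the HOXA flanks (JUNB 1.73 to 7.88). Chromosome 7 as a whole had 3.00 FOSL2 and 1.63 JUNB summits per 100 kb. For JUNB in HOXC the interval (1.39 to 9.96) lay above the density of the genome but included that of chromosome 12 (1.59). HOXB includes the gap between HOXB9 and HOXB13. With the span ended at HOXB9, chosen after seeing the data, its ratio of cluster to flank rose from 0.444 to 0.681 for FOSL2 and from 0.499 to 1.36 for JUNB.

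**Figure D3:**
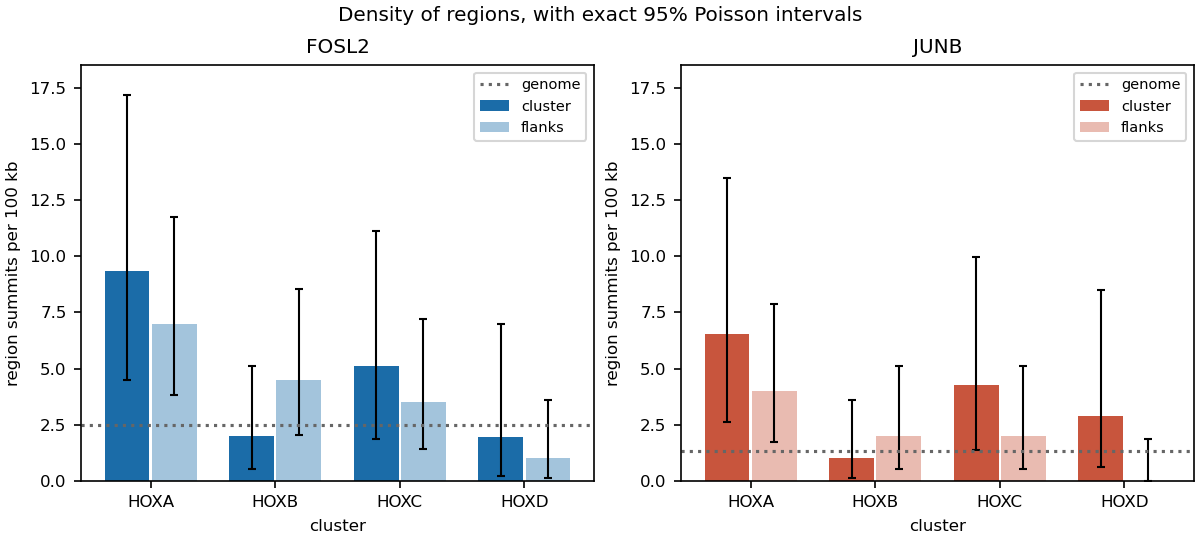
Region summits per 100 kb inside each HOX cluster (dark bars) and in the 100 kb on each side (light bars) for FOSL2 and JUNB, with exact 95% Poisson intervals and the density of the genome as a dotted line. The intervals of cluster and flanks overlap in every pair of bars. HOXA has the highest bars, and the HOXD flanks hold no JUNB summit.

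Strong shared regions flanked 3 of the clusters. In the HOXA flanks the highest FOSL2 value was 10.4 (27046679 to 27047506 on chromosome 7, 45931 bp before the cluster) with JUNB at 6.39, and the highest JUNB value was 8.37 (27277588 to 27278158, 29925 bp past EVX1, a homeobox gene next to the cluster) with FOSL2 at 10.3. In the HOXB flanks both peaked 22480 and 22505 bp before HOXB1, between HOXB1 and the adaptor gene SKAP1, with 11.8 for FOSL2 (48505522 to 48506584) and 7.07 for JUNB (48505653 to 48506361). In the HOXC flanks both peaked 93151 and 93153 bp before HOXC13, with 9.30 (53845030 to 53846421) and 7.77 (53845033 to 53846307). The HOXD flanks had FOSL2 alone, up to 5.63 (176018636 to 176019153), 16035 bp from LNPK.

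JUNB regions inside the clusters were weak for their list. Their fold enrichment ran from 2.12 to 8.27 with a median of 2.88, and 12 of 17 fell in the lowest 25% of the JUNB list, whose median was 4.79. The median HOX cluster region had 8.56% of the JUNB list below it. In the flanks the median was 4.01, with 33.8% of the list below it and 5 of 16 regions in the lowest 25%. These ranks depended on the measure and on which regions were kept. Ranked by the peak caller's −log10 p, the median percent of the list below was 20.5 in the clusters and 56.8 in the flanks. Among regions with −log10 q (its adjusted p on a log scale) of at least 10 it was 5.70 (7 regions) and 71.2 (9 regions), and among regions of at least 400 bp 8.96 (8 regions) and 68.3 (10 regions). The 3 cluster regions above the list's median were the shared ones at HOXC10, between HOXD11 and HOXD12, and at HAGLR.

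FOSL2 regions had close median ranks inside the clusters and in the flanks when all regions were kept. Inside, fold enrichment ran from 2.25 to 10.6 with a median of 4.36, and 7 of 22 regions lay above the list's median of 5.56. The median HOX cluster region had 33.1% of the FOSL2 list below it. In the flanks the median was 4.53, with 36.1% of the list below it. By −log10 p the median percent below was 43.7 in the clusters and 45.1 in the flanks. It was 28.8 (16 regions) and 38.1 (25 regions) with −log10 q of at least 10. Among regions of at least 400 bp it was 34.2 (14 regions) and 41.8 (23 regions). JUNB regions in the clusters were also narrow, with a median width of 246 bp against 569 bp in the list, while FOSL2 regions had 637 bp against 643 bp.

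**Figure D4:**
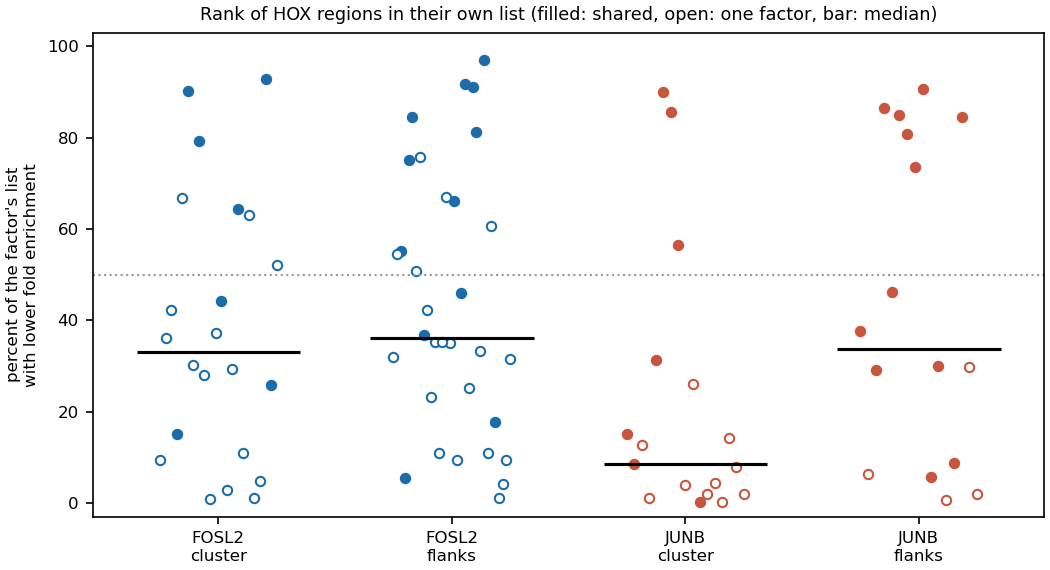
Percent of the factor's own list with lower fold enrichment, for each region inside the HOX clusters and in their flanks. Filled points are shared regions, open points regions of 1 factor, bars are medians and the dotted line is the median of the list. Most JUNB points inside the clusters lie at the bottom, with a median of 8.56, and the 3 above the dotted line are shared.

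Sharing inside the clusters was lower than in the whole list for JUNB. Of 17 JUNB regions 7 overlapped a FOSL2 region by 1 bp or more (41.2%, exact 95% binomial interval 18.4 to 67.1), beside 78.5% of the list and 12 of 16 in the flanks (75%, 47.6 to 92.7). Of 22 FOSL2 regions 7 were shared (31.8%, 13.9 to 54.9), beside 41.1% of the list and 12 of 32 in the flanks (37.5%, 21.1 to 56.3). The intervals cover counting error only, and neither difference was tested. The 10 single JUNB regions in the clusters had a median fold enrichment of 2.62, and the 7 shared ones 3.90. Single regions were also weaker for JUNB in the flanks (2.59 against 5.49). For FOSL2 the medians were 4.10 against 6.915 in the clusters and 4.313 against 7.585 in the flanks. This gap is thus not particular to JUNB in the clusters, where the lowest region, at HOXA7 (2.12), was a shared one. With only regions whose −log10 q was at least 10, 5 of 7 JUNB regions in the clusters were shared (71.4%), beside 9 of 9 in the flanks and 89.4% of the list.

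Where regions of both factors overlapped their summits were close, which the overlap itself favours. Over the 7 shared pairs in the clusters the median distance between summits was 13 bp and the longest 67 bp. The median was 22 bp in the flanks and 31 bp in the list. Of these pairs 4 lay within 1 kb of a HOX start (HOXA7, HOXA9, HOXC10 and the common HOXC4 start), and the others lay inside HOXA3, between HOXD12 and HOXD11, and at HAGLR.

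Genes that work with HOX proteins were counted in the same way, from lists chosen for their known roles. Of the TALE homeodomain cofactors, which bind DNA together with HOX proteins, 8 were analysed here: 8 had a FOSL2 region within 10 kb of the span and 6 a JUNB region. These genes were longer than HOX genes, with a median span of 99.06 kb, which leaves more sequence for a region to fall in. The highest of the regions at a gene was 11.1 for FOSL2 and 7.76 for JUNB at PBX3 (8 and 9 regions), 10.97 and 9.11 at PBX4 (6 and 2), 10.7 and 6.44 at PKNOX2 (2 and 1) and 9.70 and 7.37 at MEIS1 (5 and 3). PBX2 and PKNOX1 had FOSL2 alone, with 4.79 and 5.27 at most.

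Of the ParaHox genes, the evolutionary sisters of the HOX clusters, and the EVX genes beside HOXA and HOXD, 3 of 8 had a FOSL2 region and 0 of 8 a JUNB region. Their median span was 6.40 kb. The highest FOSL2 values were 4.67 at CDX2, 4.48 at EVX1 and 4.34 at PDX1, and CDX1, CDX4, EVX2, GSX1 and GSX2 had none. Of 15 chromatin regulators of HOX genes, Polycomb and Trithorax proteins and the insulator protein CTCF among them, 12 had a FOSL2 region and 11 a JUNB region, with a median span of 21.9 kb. By the highest region at each gene, KDM6A, a demethylase that removes the Polycomb mark, had 13.8 for FOSL2 and 8.79 for JUNB. RING1, a Polycomb subunit, had 10.95 and 6.31, and CTCF had 9.40 and 6.45. BMI1 and CBX7 had no region of either factor. These shares stand beside the same 76.9% and 64.0% of all genes.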

How the data were processed

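Binding regions of FOSL2 and JUNB in HaCaT cells were read from 1 list per factor that the authors deposited for its 3 libraries together. The submitters' processing notes name Bowtie2, SAMtools 1.8, Picard 1.89, MACS2, deepTools and hg38, without order or options. Both lists are labelled as a conservative overlap. Neither the control nor the rule for combining libraries behind this label is given in the sources used here. The deposited lists give per region a score, a fold enrichment (linear ratio of signal over background), a −log10 p, a −log10 q and a summit offset. The fold enrichment of a region is the authors' value and was ranked within its list alone, and the score was not used.

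The FOSL2 list had 75703 regions on the autosomes and X and the JUNB list 40061. Regions, gene spans and clusters were compared with Python 3.11.15, pandas 2.3.3, numpy 2.4.6 and scipy 1.17.1, in coordinates from 1. A region was near a gene when any base lay within 10 kb of its span, belonged to the cluster or flank that held its summit, and was shared with at least 1 bp in common. The code for overlaps was checked on simulated regions. Percentages have exact binomial and densities exact Poisson intervals. No test was run, since each factor has 1 list. By rule, the 3 strongest regions per factor and cluster, all shared pairs in clusters and the strongest flank regions were named. The genes, lists and rules were chosen with earlier results of these data known. Results that name some genes are not reported here.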

Additional observations from a re-analysis of the deposited data

How the results depend on the processing

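No paired analysis was possible because each factor has 1 list for its 3 libraries, and for the same reason no library could be left out. Of 54 alternative values of the comparisons, 44 stayed within 1.5 times the count or within the interval of the value reported. This count says little about stability, since few regions made some intervals wide. The median JUNB flank rank of 33.8, for example, had an interval of 6.34 to 84.5, so values of 71.2 and 68.3 counted as within it. The 27 genes with a FOSL2 region, 27 with a JUNB region and 22 with both fell to 12, 11 and 7 when a region had to overlap the gene span, a criterion met by 59.4% (FOSL2) and 49.4% (JUNB) of all genes. They became 16, 15 and 12 with each region given to its nearest HOX gene, a setting for which no share of all genes was counted. With −log10 q of at least 10 the JUNB count fell to 13 and that of both factors to 13, while the FOSL2 count was 26, beside 51.7% and 71.3% of all genes for JUNB and FOSL2. For both factors together no share of all genes was counted at these settings, so 7, 12 and 13 cannot be called low. The same setting, with sharing counted among the remaining regions, moved the JUNB shares to 71.4% in the clusters (7 regions) and 100% in the flanks (9 regions), and left no JUNB region in HOXB. The ratio of cluster to flank density over the 4 clusters ranged from 0.970 to 1.30 for FOSL2 and from 1.18 to 2.13 for JUNB. Ratios for JUNB in HOXD, and with flanks of 50 kb for FOSL2 in HOXD and JUNB in HOXC, had no flank region to divide by. Few regions limit every statement here: a cluster holds at most 10 of a factor.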
